A study of Mus musculus with 14 samples.

Results

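The genes Batf, Batf2, Batf3, Nfil3, Zbtb46, Bcl6, Relb and Bcl11a encode transcription factors known for their parts in the development of classical dendritic cells (cDC). These 8 genes were chosen by symbol, out of 20284 genes with a named probe, and were followed through the dendritic lineage and neutrophils of the mouse. They are read by 11 probes, since Zbtb46, Relb and Bcl11a have 2 probes each and the others 1. Where a gene has 2 probes, its value is that of the brighter one. All 8 genes and all 11 probes are on both array designs of the series.

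Total RNA of sorted primary cells from C57BL/6 mice was labelled and hybridised to 14 single-colour Agilent arrays, 2 for each of 7 groups. Of these groups, 6 were on a larger design (12 arrays) and the CD4+ cDC on a smaller one. Wild-type granulocyte-monocyte progenitors (GMP) came from bone marrow and were gated as CD117+ CD16/32+ cells negative for CD115, Sca-1, IL-7R and lineage (Lin) markers, and IRF8KO GMP, which by their label lack the transcription factor IRF8, had the same gate. All other groups were wild-type. Common dendritic cell progenitors (CDP) of the marrow were Lin- IL-7R- Sca-1- with intermediate CD117, CD115+ and CD135+. Committed cDC precursors (pre-cDC) of the marrow were Lin- CD11c+ MHC-II- CD135+ CD172a+. Splenic CD8+ cDC were CD11c+ MHC-II+ CD4- CD8+, splenic CD4+ cDC were CD11c+ MHC-II+ CD4+ CD8-, and marrow neutrophils (Neu) were CD11b+ with high Ly6G. The CD4+ cDC were purified by magnetic beads (MACS) alone, the neutrophils by flow cytometry alone and the others by both. None of the 8 genes encodes a gate marker. The labels do not say that the 2 arrays of a group came from separate animals, so p-values reflect the spread between 2 arrays, which may be no more than technical.

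Classical dendritic cells arise from GMP-like progenitors through the CDP and the pre-cDC and split into the CD8+ lineage (cDC1), which cross-presents antigen, and the CD4+ lineage (cDC2). BATF proteins are short basic leucine zipper factors that bind DNA with JUN partners and, together with IRF4 or IRF8, at composite sites. BATF3 and NFIL3 are known to be needed for cDC1, ZBTB46 marks the committed classical lineage, BCL6 is a repressor needed for cDC1, RELB is the noncanonical NF-kB subunit linked with cDC2 and maturation, and BCL11A acts in early progenitors upstream of dendritic and lymphoid cells.

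Upstream sequences are shown for the gene with the largest stepwise rise (Batf3), for the gene whose levels followed it most closely among the others over all 12 arrays (Zbtb46), and for Bcl6, which differed between the IRF8KO and wild-type GMP arrays and has an IRF-type motif in 1 of its 2 windows. They are the 250 bases before a start in the RefSeq promoter table of build GRCm38.p6, which holds 6 of the 8 genes in 7 windows and lacks Batf2 and Relb. Capitals mark a match to AP-1 (TGANTCA) or to the ETS-IRF composite, in which GGAA is followed after 2 bases by GAAA. Batf3 lies on the plus strand at chr1:191098164-191098413, Zbtb46 on the minus strand at chr2:181424389-181424638 and this Bcl6 window on the minus strand at chr16:23981284-23981533.
Batf3: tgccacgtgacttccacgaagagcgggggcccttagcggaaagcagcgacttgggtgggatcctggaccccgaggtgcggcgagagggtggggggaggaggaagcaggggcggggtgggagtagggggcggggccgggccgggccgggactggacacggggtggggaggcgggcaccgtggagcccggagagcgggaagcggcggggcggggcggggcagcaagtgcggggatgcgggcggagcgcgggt
Zbtb46: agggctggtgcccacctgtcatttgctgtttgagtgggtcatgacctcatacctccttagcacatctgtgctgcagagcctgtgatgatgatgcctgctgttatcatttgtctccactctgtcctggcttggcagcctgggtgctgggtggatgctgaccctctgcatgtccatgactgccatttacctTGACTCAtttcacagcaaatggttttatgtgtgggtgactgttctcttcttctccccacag
Bcl6: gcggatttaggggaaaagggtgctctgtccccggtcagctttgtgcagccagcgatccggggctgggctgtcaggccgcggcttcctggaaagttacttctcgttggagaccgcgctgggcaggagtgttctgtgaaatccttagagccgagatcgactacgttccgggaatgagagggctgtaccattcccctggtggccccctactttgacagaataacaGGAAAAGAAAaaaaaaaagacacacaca
The Zbtb46 window held 1 AP-1 match, TGACTCA, which starts 61 bases before the transcript start, and 6.75% of the 32851 promoters of the table held such a match. The Bcl6 window held the ETS-IRF match GGAAAAGAAA, 28 bases before the start, and 2.3% of all promoters held such a match. This window was shown because it holds the match, so that share tests nothing. The other Bcl6 window held no ETS-IRF match, nor did that of Nfil3, which differed more between the IRF8KO and wild-type GMP arrays. A link between the match and the Bcl6 difference was not tested. The NF-kB motif, GGG and CC with 5 bases between them, matched in the windows of Batf3 and Bcl11a and in both of Bcl6, and 45.8% of all promoters held it. The ISRE (GAAA, 2 bases, GAAA), the IRF-ETS composite (GAAA, 2 bases, GGAA) and the D-box (TTANGTAA) matched in none of the 7 windows and in 2.98%, 2.3% and 2.06% of all promoters. Both strands were searched, the ISRE, ETS-IRF and IRF-ETS motifs can overlap each other, and a match describes letters in the window, not binding.

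Levels below are log2 processed signals minus the array's 75th percentile of all probes, so 0 is the level of a probe at that percentile. A probe counts as well above background where the scanner software marked a share of 0.5 or more of its spots so. The 75th percentile of the raw signal ranged from 77.4 on a CDP array to 661 on a CD4+ cDC array, and 39.4% to 61.4% of probes were well above background. Markers were summed over their list, as signal in units of the 75th percentile of the probes both designs hold. Some lists hold genes of the gate markers, such as Ly6g, Kit (CD117), Csf1r (CD115), Cd4, Itgam (CD11b) and Sirpa (CD172a). The order of the groups in those lists can therefore be set in part by the sort. The GMP and primary granule genes were highest in both GMP groups (879 to 1096, against 10.2 to 583 elsewhere), though all 8 were well above background in every group but CD8+ cDC. The mature neutrophil genes were highest in neutrophils (5643 to 6078, against 64.7 to 189 elsewhere), though all 10 measured were well above background in CD4+ cDC as well. The cDC1 genes were highest in CD8+ cDC (566 to 578, against 20.8 to 148 elsewhere). The cDC2 genes summed to 429 to 452 in CD4+ cDC and 109 to 119 in CD8+ cDC. Irf8, the gene named in the knockout label, read 4.79 and 4.87 in wild-type GMP and 6.22 and 6.17 on the arrays labelled IRF8KO. Its single probe was thus brighter on the arrays labelled IRF8KO, and where it lies relative to the deleted part is not given, so it does not check the label. Apart from the arrays labelled IRF8KO with WT GMP and CD8+ cDC with neutrophils, each pair of groups compared lay on different slides, and slide and group cannot be told apart there. In these bulk samples, fewer cells of a type and less RNA per cell cannot be told apart.

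Batf3, the partner of JUN proteins known for its part in cDC1, rose at each step of the dendritic lineage. It read -4.25 and -4.07 in WT GMP, where neither array was well above background, and -4.63 and -4.13 in GMP labelled IRF8KO, where 1 was. The CDP arrays stood at -1.14 and -1.15, the pre-cDC arrays at 2.13 and 2.18 and the CD8+ cDC arrays at 6.19 and 6.23. In neutrophils it read -2.66 and -2.53. The replicates lay close together except in IRF8KO GMP (SD 0.36). No group overlapped another, except the WT and IRF8KO GMP arrays. In order, CD8+ cDC were highest, followed by pre-cDC, CDP, neutrophils and the GMP.

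Batf2, a BATF family member known as induced by interferon and able to compensate for BATF3, had a different order. Its signal was 0.29 and 0.04 in CD8+ cDC, -1.24 and -1.52 in WT GMP, -1.77 and -1.55 in IRF8KO GMP and -1.82 and -1.44 in CDP. It was not well above background in pre-cDC (-3.38 and -3.02) or neutrophils (-2.65 and -3.04). CD8+ cDC stood above all other groups of the larger design, while WT GMP, CDP and IRF8KO GMP overlapped. Batf, the founding member of the family, known from T cell and B cell differentiation, varied least of the 8, from a mean of 2.13 ± 0.01 (SD, n = 2) in CD8+ cDC to 2.85 ± 0.02 in CDP. Its arrays read 2.43 and 2.47 in WT GMP and 2.41 and 2.34 in IRF8KO GMP. The CDP arrays gave 2.86 and 2.83, the pre-cDC arrays 2.08 and 2.21, the CD8+ cDC arrays 2.14 and 2.13 and the neutrophil arrays 2.58 and 2.59. The pre-cDC and CD8+ cDC arrays overlapped, and in that order of levels neither WT GMP and neutrophils nor WT and IRF8KO GMP were called different.

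Nfil3, a basic leucine zipper repressor that competes with the PAR bZIP factors for D-box sites, was highest in neutrophils. It read 5.02 on both neutrophil arrays, 3.20 and 3.28 in CDP and 2.17 and 2.02 in IRF8KO GMP. It read 0.97 and 1.03 in CD8+ cDC, 0.94 and 0.77 in WT GMP and 0.39 and 0.32 in pre-cDC. The groups did not overlap, but the gap of 0.14 between CD8+ cDC and WT GMP missed the threshold (limma adjusted p = 0.119).

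Zbtb46, a BTB zinc finger factor that marks committed cDC, went up with the lineage. It read -3.73 and -3.21 in WT GMP and -3.83 and -3.49 in IRF8KO GMP, where 0 and 1 arrays were well above background. The CDP arrays were at -1.97 and -2.26, the pre-cDC arrays at 0.38 and 0.18, the CD8+ cDC arrays at 0.86 and 1.09 and the neutrophil arrays at -1.85 and -1.66. The cDC and pre-cDC arrays stood above the rest, and the neutrophil and CDP levels, 0.36 apart, were not called different (limma adjusted p = 0.124). Bcl6, a BTB zinc finger repressor best known from germinal centres, increased along the same series but was highest in neutrophils. It read 0.41 and 0.45 in WT GMP and 1.30 on both IRF8KO arrays. The CDP arrays gave 2.91 and 2.84, the pre-cDC arrays 3.24 and 3.19, the CD8+ cDC arrays 5.32 and 5.27 and the neutrophil arrays 6.78 and 6.88. All 6 groups were separate, and each neighbour in that order was called different.

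Relb, the noncanonical NF-kB subunit, rose from GMP to cDC. It read -1.43 and -1.71 in WT GMP and -1.30 and -1.18 in IRF8KO GMP. The CDP arrays gave -0.44 and -0.66, the pre-cDC arrays 0.78 and 1.0, the CD8+ cDC arrays 3.75 and 3.81 and the neutrophil arrays 1.35 and 1.32. The groups did not overlap, and only the IRF8KO and WT GMP neighbours, 0.33 apart, were not called different (adjusted p = 0.0872). Bcl11a, a zinc finger factor that recruits the NuRD complex, was highest in CDP and pre-cDC, while both GMP groups lay below CD8+ cDC. The CDP arrays gave 4.93 and 5.0, the pre-cDC arrays 4.89 and 4.95 and the CD8+ cDC arrays 4.01 and 4.03. WT GMP read 3.39 and 3.42, both IRF8KO arrays 3.08 and both neutrophil arrays -0.13. CDP and pre-cDC overlapped, and the neutrophil arrays lay far below all others.

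Between most of these groups the greater part of all genes tested was called as well. Of all genes tested, 80.5% were called between pre-cDC and WT GMP and 82.4% between CD8+ cDC and WT GMP. Against IRF8KO GMP the shares were 76.6% for CDP, 79.7% for pre-cDC, 81.6% for CD8+ cDC and 90.9% for neutrophils. Neutrophils differed from CDP in 92% and from pre-cDC in 88.9% of the genes tested. The backgrounds of the other neighbours are given with the comparisons that follow.

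**Figure D1:**
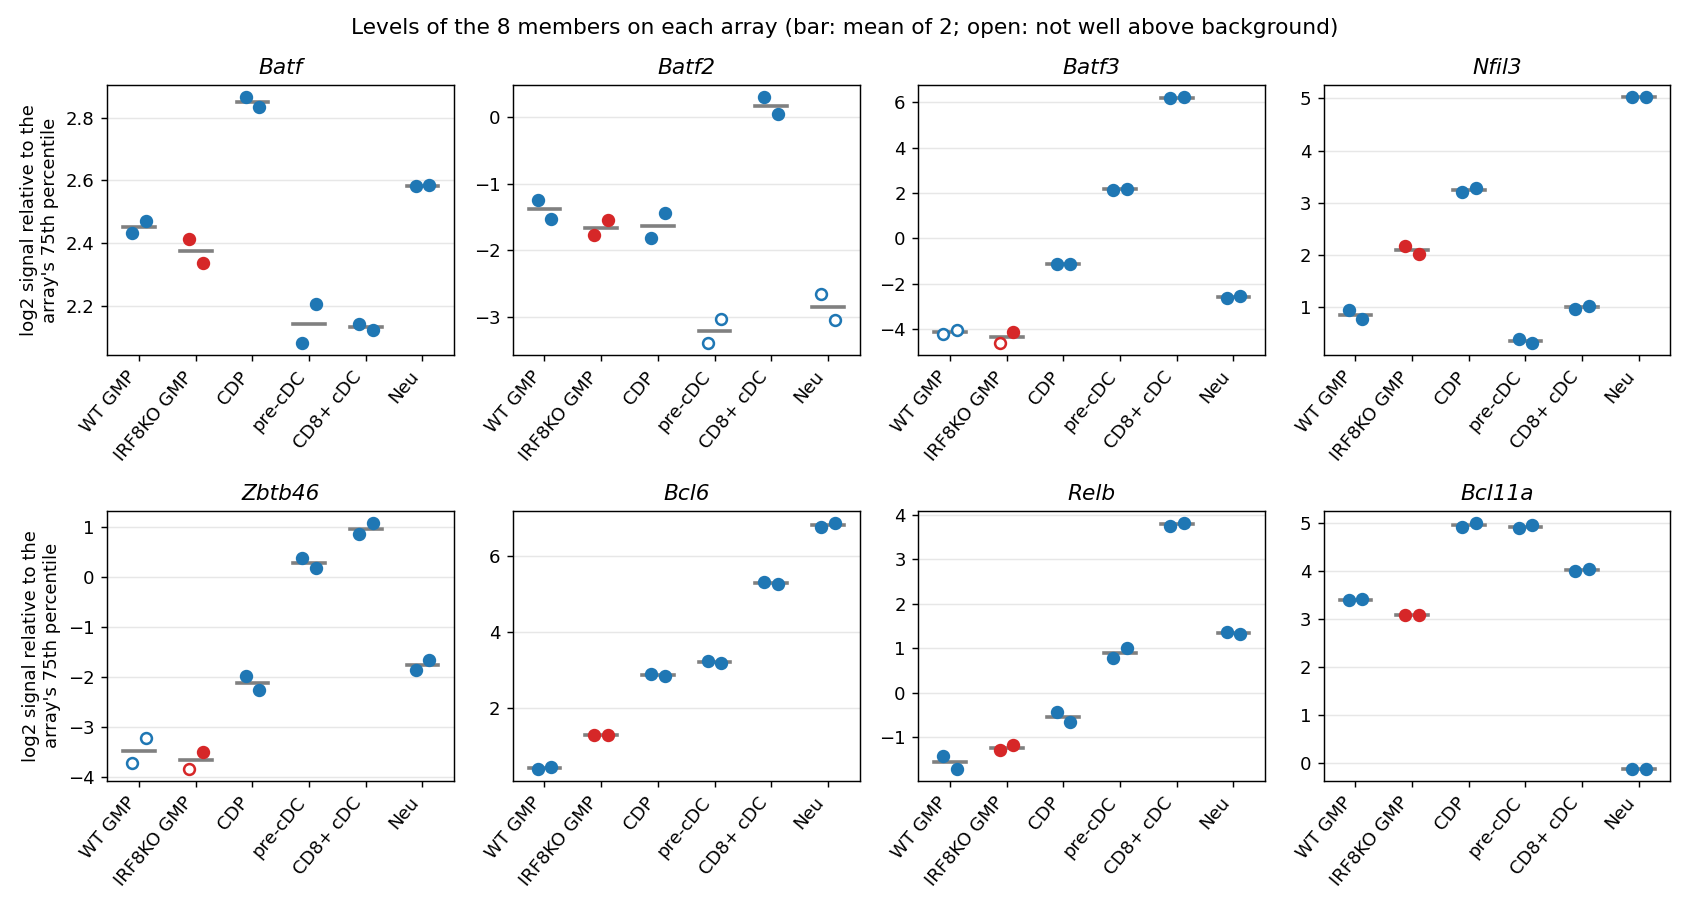
Log2 signal of the 8 genes relative to the array's 75th percentile, in 6 groups of the larger design. Each point is an array, the grey bar is the mean of 2, open points were not well above background, red points are the arrays labelled IRF8KO, and each panel has its own vertical scale. Batf3 climbs from -4.25 in GMP to 6.23 in CD8+ cDC, Bcl6 and Nfil3 are highest in neutrophils, and Bcl11a falls to -0.13 there.

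The arrays labelled IRF8KO were set against WT GMP, which shared their slide, a comparison that by its label concerns IRF8 in the progenitor, although the brighter Irf8 probe leaves the label unchecked. Nfil3 and Bcl6 were brighter and Bcl11a slightly dimmer. Nfil3 was higher by 1.24 ± 0.08 (SE, 2.36-fold, limma adjusted p = 3.27e-05), a rise as large or larger being found in 2.2% of the genes tested. Bcl6 was higher by 0.87 ± 0.06 (adjusted p = 3.81e-05). Bcl11a fell by 0.32 ± 0.05 (adjusted p = 0.00282), a call lost when arrays were centred on their median (adjusted p = 0.217). The other Bcl11a probe gave -0.17 and was not called (adjusted p = 0.316). Both arrays of each group lay apart in these 3 genes. The brighter Relb probe, used for the gene, gave 0.33 (adjusted p = 0.0872) and the other one 0.83 (adjusted p = 0.0177 over all probes), so the probes differ in their call. Batf (-0.08) and Batf2 (-0.28) were not called, and Batf3 and Zbtb46 were not tested, being not well above background on both arrays of either group. Thus 3 of 6 tested genes were called, where 25.2% of the 12156 genes tested were called (3058 genes), 15.2% higher and 9.98% lower. Without 1 of the 4 arrays in turn the genes called numbered 1851 to 1992, and the 3 calls stood. Over all 8 genes the median change was -0.14, which includes the untested Batf3 (-0.22) and Zbtb46 (-0.19). Over all genes tested it was 0.04, so the 2 medians cover unlike sets and their signs are not compared. Other lineages' markers moved in the same comparison. All 6 basophil and mast cell markers fell, summing to 13.2 to 13.4 on the arrays labelled IRF8KO and 40.2 to 41.7 in WT GMP. All 4 tested erythroid markers fell too (0.786 to 0.817 against 14.5 to 14.8), and 7 of 9 tested monocyte and macrophage markers rose (57.4 to 61.2 against 20.7 to 21.3). Of the mature neutrophil genes, 6 of 9 tested rose (71.4 to 72.5 against 64.7 to 71.1), and the part of any of these in the member changes was not tested.

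From WT GMP to CDP, 7 of the 8 genes were called higher and none lower, at a background of 78% called, 51.9% higher and 26.1% lower. The same WT GMP arrays also serve the comparisons of IRF8KO GMP and of neutrophils. Batf3 rose by 3.01 ± 0.15 (limma adjusted p = 6.61e-07), which, since WT GMP were not above background, is at least 5.56-fold higher. Bcl6 rose by 2.45 ± 0.06 (5.47-fold) and Nfil3 by 2.38 ± 0.08 (5.21-fold), rises that 3.54% and 3.75% of all tested genes reached. Bcl11a rose by 1.56, Zbtb46 by 1.36 (at least 2.22-fold) and Relb by 1.02 (2.03-fold). Batf was higher by 0.40 ± 0.06 (adjusted p = 0.000323), but this turned to -0.054 with a normexp background and to -0.12 with the percentile taken over probes above background on all arrays, and it was not called after quantile normalization (0.05) or in the authors' deposited table (0.04). Batf2 was not called (-0.25), and with normexp it was called higher (0.63). The median of the 8 was 1.46 and that of all genes tested 0.31, a shift to which the scaling contributes, as the all-gene median went to -0.20 with the percentile of probes above background. The share of higher among the genes called was 66.5%, and 40.4% with that percentile. All 6 tested basophil and mast cell markers and all 4 erythroid ones fell in CDP, and 7 of 9 monocyte and macrophage markers rose (268 to 269 against 20.7 to 21.3), whose part was not tested. The monocyte and macrophage list holds Csf1r, the gene of CD115, for which GMP were gated negative and CDP positive.

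From CDP to pre-cDC the genes parted. Batf3 rose by 3.30 ± 0.15 (9.87-fold, limma adjusted p = 3.89e-07), and 0.941% of genes tested rose as far. Zbtb46 rose by 2.39 ± 0.20 (5.25-fold) and Relb by 1.44 ± 0.12 (2.71-fold). Nfil3 fell by 2.89 ± 0.08 (7.39-fold), a fall that 0.749% of genes matched. Batf2 dropped by 1.57, at least 2.14-fold lower, and Batf fell by 0.70 ± 0.06 (1.63-fold). Bcl6 was higher by 0.34 ± 0.06 (adjusted p = 0.000661), but -0.13 after centring on array medians. Bcl11a differed by -0.04 (adjusted p = 0.451) and moved between -0.51 with array medians and 0.57 in the authors' deposited table, so its direction here depends on the scaling. Together 4 of the 8 genes were called higher and 3 lower, at a background of 84.2% called, 23.9% higher and 60.3% lower. The members' median of 0.15 stands beside -0.54 for all genes tested, and the latter ranged from -1.01 to 0.01 with the scaling. Of 10 tested stress and dissociation genes 9 rose (84.9 to 87.1 in pre-cDC against 7.02 to 7.36 in CDP), 7 of 8 tested mature neutrophil genes rose (150 to 157 against 77.9 to 78), and 7 of 8 plasmacytoid markers rose (327 to 329 against 136 to 139), whose part was not tested.

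From marrow pre-cDC to splenic CD8+ cDC, 6 genes rose and Bcl11a fell, while Batf did not differ detectably, at a background of 74.7% called, 40.3% higher and 34.4% lower. Batf3 rose again, by 4.06 ± 0.15 (16.6-fold, limma adjusted p = 1.4e-07). Batf2 rose by 3.37 ± 0.21, at least 7.42-fold, Relb by 2.89 ± 0.12 (7.43-fold) and Bcl6 by 2.08 ± 0.06 (4.23-fold). Increases as large as those of Batf3 and Relb were found in 1.76% and 3.42% of genes tested. Nfil3 rose by 0.65 and Zbtb46 by 0.69 (adjusted p = 0.0147), and the Zbtb46 call was lost without CD8+ cDC replicate 2 (0.0849) or without pre-cDC replicate 2 (0.0782), as it was with the other Zbtb46 probe (0.67, adjusted p = 0.118). Bcl11a fell by 0.90 ± 0.05 (1.87-fold, adjusted p = 1.24e-06). Batf changed by -0.01 and had the opposite sign with normexp (0.15), array medians (0.25) and the authors' table (0.32). The median of the 8 was 1.39 and of all genes tested 0.08. Other lists moved too. Of the GMP and primary granule genes 7 of 8 fell (10.2 to 10.3 in CD8+ cDC against 74.9 to 77 in pre-cDC), as did all 4 tested basophil and mast cell markers (0.0682 to 0.0723 against 6.3 to 7.51) and 5 of 8 plasmacytoid markers (130 to 158 against 327 to 329). Of the mature neutrophil genes 6 of 7 tested fell, though their sum did not (154 to 189 against 150 to 157). Of the dendritic cell maturation genes 10 of 11 rose (125 to 127 against 8.08 to 8.57). Of the interferon response genes 8 of 13 tested rose (18.9 to 19.9 against 12.6 to 14). The erythroid markers summed to 85.7 to 92.6 against 2.45 to 2.58, with 1 of 3 tested higher and 2 lower. The part of these in the member changes was not tested. The comparison spans tissue and slide as well as stage, which cannot be told apart.

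Neutrophils, the branch outside the dendritic lineage, were compared with WT GMP and with CD8+ cDC. Against WT GMP, Bcl6 was higher by 6.40 ± 0.06 (84.6-fold, limma adjusted p = 7.79e-11) and 1.56% of genes rose as far. Nfil3 was higher by 4.17 ± 0.08 and Relb by 2.91 ± 0.12 (7.49-fold). Bcl11a fell by 3.53 ± 0.05 (11.6-fold). Batf3 and Zbtb46 were at least 2.04-fold and 2.85-fold higher than in WT GMP, and Batf2 was at least 2.56-fold lower, though with normexp Batf2 gave 0.046. Batf, at 0.13 (adjusted p = 0.0571), was not called, and its sign turned with normexp (-0.13), array medians (-0.34) and the percentile of probes above background (-0.17). With 5 higher and 2 lower, 7 of 8 genes were called against 92.4% of all genes, 46% higher and 46.4% lower. In the same comparison 11 of 14 interferon response genes rose (67.3 to 68.8 in neutrophils against 10.4 to 11.2), as did 8 of 9 tested stress and dissociation genes (19.3 to 19.4 against 2.43 to 2.44). All 6 basophil and mast cell markers fell (1.52 to 1.59 against 40.2 to 41.7), and of the B cell markers 5 of 6 tested rose while their sum was lower (2.85 to 2.94 against 5.08 to 5.2). The part of these in the member changes was not tested. The other Zbtb46 probe was not well above background in either group and was not tested.

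CD8+ cDC and neutrophils lay on 1 slide, and all 8 genes were called between them, at a background of 85.8%, 43.9% higher in CD8+ cDC and 41.9% lower. Batf3 was higher in CD8+ cDC by 8.81 ± 0.15 (447-fold, limma adjusted p = 6.4e-10), which 0.273% of genes tested reached. Bcl11a was higher by 4.15 (17.7-fold), Batf2 at least 7.49-fold, Zbtb46 by 2.73 (6.62-fold) and Relb by 2.45 (5.45-fold). The other Zbtb46 probe was called higher in CD8+ cDC too (adjusted p = 1.03e-06), but was not well above background on either neutrophil array, so its difference is not given. Nfil3 fell by 4.02 (16.3-fold), Bcl6 by 1.54 (2.90-fold) and Batf by 0.45, the Batf call being lost with array medians (-0.21, adjusted p = 0.117). The members' median was 2.59 and that of all genes -0.000551.

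**Figure D2:**
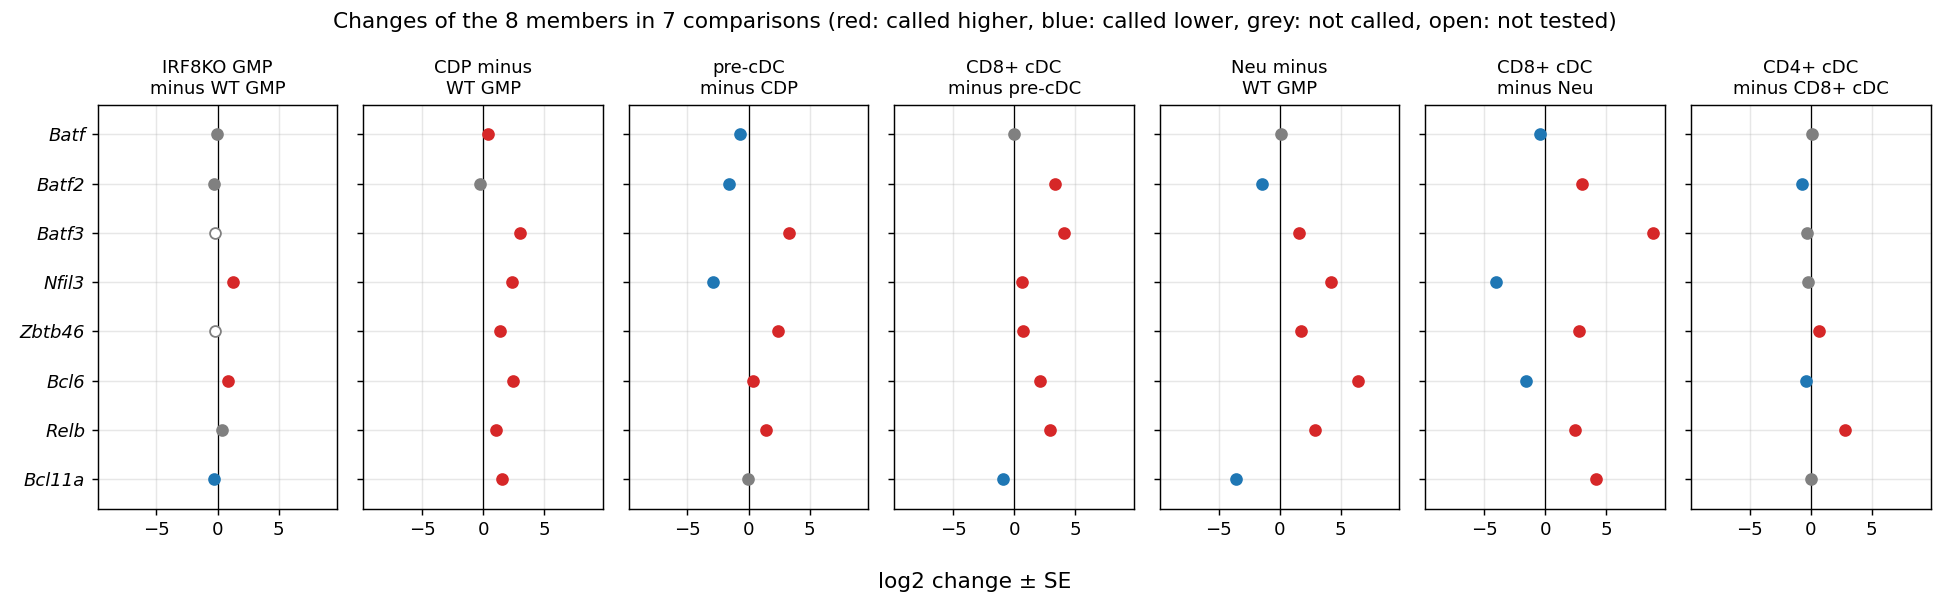
Log2 change (horizontal axis) of each gene in 7 comparisons, with standard errors that are mostly smaller than the points. Red and blue mark genes called higher and lower at an adjusted p under 0.05, grey ones were not called and open ones not tested. Batf3 lies at 3.01, 3.30 and 4.06 over the 3 steps from GMP to CD8+ cDC, while Nfil3 is at 2.38, -2.89 and 0.65. Batf in CDP minus WT GMP and Bcl6 in pre-cDC minus CDP change sign under other scalings, as does Batf2 in Neu minus WT GMP with normexp.

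The 2 splenic subsets were compared on the probes both designs hold, with the percentile taken over those, so levels here are on their own scale. Relb had the largest difference of the 8 genes. It read 5.59 and 5.46 in CD4+ cDC and 2.67 and 2.71 in CD8+ cDC, with no overlap. The difference was 2.84 ± 0.13 (7.15-fold, limma adjusted p = 1.67e-07), the other probe gave 2.82, and 4.06% of genes tested were as far higher. Batf3 was high in both, at 4.86 and 4.77 in CD4+ cDC and 5.10 and 5.13 in CD8+ cDC. The groups did not overlap, but the difference of -0.30 ± 0.15 was not called (adjusted p = 0.0889), and it was called higher in CD4+ cDC after quantile normalization (0.25) and in the authors' deposited table (0.25) and called lower with normexp (-0.56). Marrow pre-cDC read 1.02 and 1.10 for Batf3 on this scale, below both splenic subsets.

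Zbtb46 read 0.46 and 0.59 in CD4+ cDC and -0.23 and -0.014 in CD8+ cDC, apart by 0.65 ± 0.19 (limma adjusted p = 0.0141). The other Zbtb46 probe gave -0.07 (adjusted p = 0.862), the mean of both probes 0.29 (adjusted p = 0.101), and the call was lost without CD4+ cDC replicate 2 (0.0706) or CD8+ cDC replicate 1 (0.084). Batf2 read -1.42 and -1.79 in CD4+ cDC against -0.80 and -1.06, a fall of 0.67 ± 0.22 (adjusted p = 0.0209) that was not called without CD4+ cDC replicate 2 (0.133) or CD8+ cDC replicate 1 (0.118). Bcl6 read 3.73 and 3.88 against 4.23 and 4.16, so that it fell by 0.39 ± 0.07 (adjusted p = 0.000579), but the difference was only -0.000708 with normexp and -0.03 after quantile normalization. Nfil3 read -0.46 and -0.10 against -0.12 and -0.07 and overlapped. Bcl11a read 2.78 and 3.07 against 2.92 and 2.93, a difference of -0.00104, while its other probe was higher in CD4+ cDC by 0.61 (adjusted p = 0.000971). Batf read 1.34 and 1.03 against 1.05 and 1.02, overlapping, and at 0.15 was not called. Without CD4+ cDC replicate 2, Batf (0.30, adjusted p = 0.00873) and Nfil3 (-0.36, adjusted p = 0.00737) were called.

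Of the 8 genes, 2 were called higher and 2 lower in CD4+ cDC, against 74.9% of all genes called, 36.3% higher and 38.6% lower. The members' median was -0.09 and that of all genes -0.02, and the share of higher among the genes called was 48.5%, against 63.6% with array medians. The 2 groups also differ in design, slide and purification, which cannot be told apart from subset. Markers of several other cell types were brighter in CD4+ cDC. The B cell markers summed to 11.3 to 12.3 against 3.39 to 3.44, with 4 of 6 tested called higher, and the T and NK cell markers to 12.6 to 15.5 against 6.29 to 6.69, with 7 of 9. Erythroid markers summed to 301 to 406 against 85.7 to 92.6, with 5 of 5 called higher, and monocyte and macrophage markers to 99.4 to 139 against 18.8 to 19.1, with 9 of 11. Of the mature neutrophil genes 9 of 10 were higher, while their sum was lower (87.5 to 110 against 154 to 189). Interferon response genes summed to 66.8 to 74 against 18.9 to 19.9, with 12 of 14 higher and 1 lower. Stress and dissociation genes summed to 158 to 204 against 83.7 to 87.1, with 5 of 10 higher and 2 lower. Dendritic cell maturation genes summed to 176 to 177 against 125 to 127, with 5 of 11 higher and 2 lower. All 11 cDC1 genes were lower and 10 of 12 cDC2 genes higher, and the part of any of these lists in the member values was not tested.

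**Figure D3:**
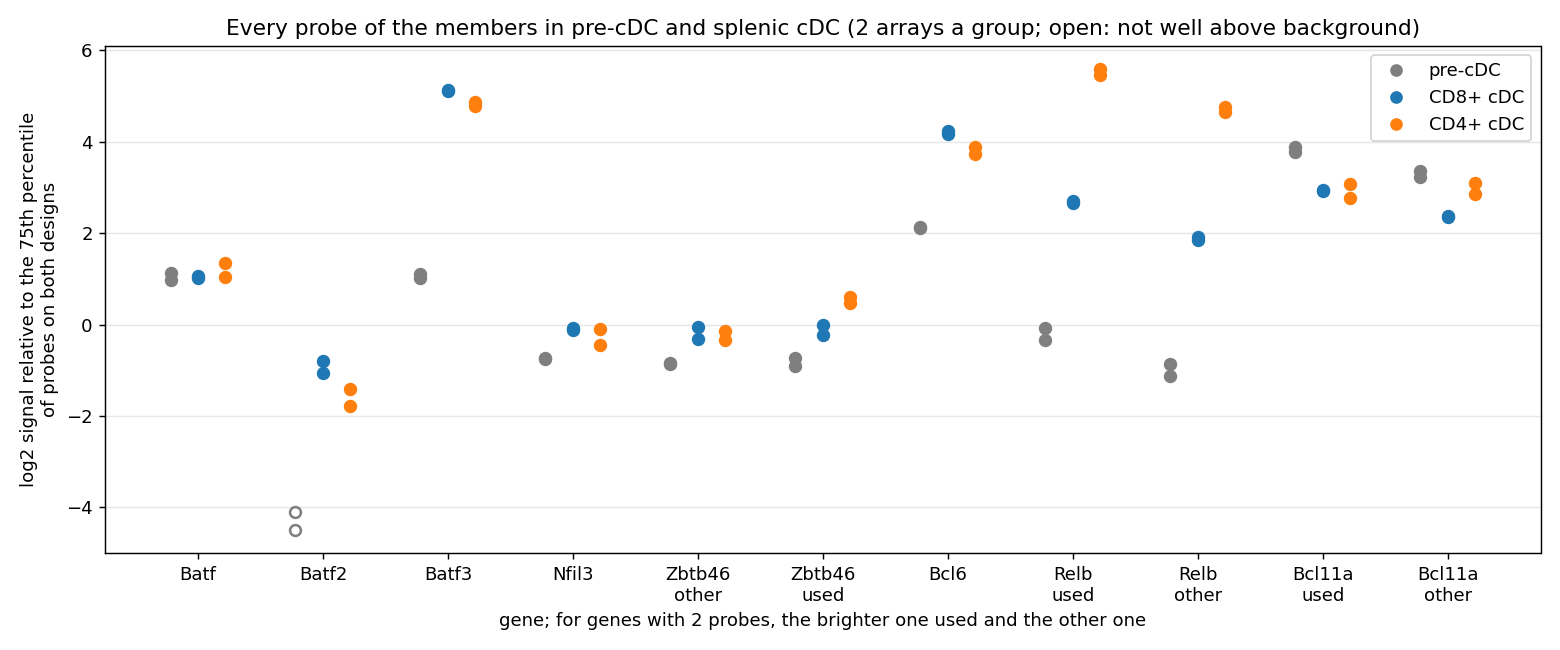
Every probe of the 8 genes in pre-cDC, CD8+ cDC and CD4+ cDC, as log2 signal relative to the 75th percentile of the probes on both designs. Each point is an array and open points were not well above background. Both Relb probes are higher in CD4+ cDC (5.59 and 5.46 for the probe used), whereas the 2 probes of Zbtb46 and of Bcl11a part from each other. Batf3, Nfil3 and Bcl11a change the sign of their difference between the splenic subsets under other scalings.

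Known partners and related genes of these factors were described from lists of the same pathways, and their counts stand beside the share of all genes tested. In pre-cDC minus CDP 23.9% of all genes were higher and 60.3% lower, in CDP minus WT GMP 51.9% and 26.1%, and in neutrophils minus WT GMP 46% and 46.4%. In CD8+ cDC minus pre-cDC these shares were 40.3% and 34.4%, and in CD4+ minus CD8+ cDC 36.3% and 38.6%. The all-gene medians of these comparisons were -0.54, 0.31, -0.0038, 0.08 and -0.02. Of the AP-1 genes listed for the BATF proteins, which are not only their JUN partners, 7 of 8 tested rose from CDP to pre-cDC (median 3.24) and 1 fell. The most changed were Atf3 (6.75, at least 42.8-fold), Fosb (6.20, at least 73.3-fold) and Fos (5.52). None of these 3 is a JUN gene, and all 3 are also on the stress and dissociation list. In CD8+ cDC minus pre-cDC, where Batf3 rose by 4.06, 3 of 10 listed AP-1 genes were higher and 5 lower (median -0.21, or 0.045 with array medians). Jun, a JUN family gene, fell by 1.66 there after rising by 2.75 from CDP to pre-cDC. The JUN family genes Junb and Jund were measured as well, and their changes at these steps are not given here.

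For Relb, the list of NF-kB subunits, inhibitors and noncanonical pathway genes held 18 genes. Of these, 12 of 17 tested rose and 2 fell in CDP (median 1.16, against 51.9% and 26.1% of all genes and a median of 0.31), and 14 of 16 rose and 2 fell in neutrophils (median 1.64, against 46% and 46.4% of all genes). The latter were led by Bcl3 (4.12), an atypical IkB protein, and Nfkbia (3.24), the classical inhibitor. In CD4+ minus CD8+ cDC, 12 of 18 were higher and 3 lower (median 0.54). Nfkb1, the p105/p50 gene, was higher by 2.16 and Bcl3 by 1.52, and Rel, which encodes c-Rel, fell by 2.90, at least 2.3-fold lower in CD4+ cDC.

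For Nfil3, the PAR bZIP factors and D-box clock genes are a list of 8. In CDP, where Nfil3 rose by 2.38, 6 of 8 fell, or 3 of 8 with normexp, and Dbp was the 1 higher (0.43, or -0.084 with the percentile of probes above background). Hlf, a PAR bZIP factor, was at least 15.9-fold lower and Tef, another, fell by 0.63. The dim clock genes depended on the background correction. Per3 was at least 2.43-fold lower, Nr1d1 at least 1.7-fold lower and Per2 fell by 2.01, but with normexp their changes were 0.057, 0.50 and 0.016. In neutrophils, with Nfil3 higher by 4.17, 6 of 8 fell, among them Tef, which fell by 4.47, and Per2 rose by 0.75. Per1 was called higher there (0.22), but gave -0.25 with array medians. In pre-cDC, where Nfil3 fell by 2.89, 2 of 4 tested genes rose, Per1 by 1.65 and Hlf at least 3.83-fold. Dbp fell by 1.28 there, and Tef fell by 0.55, or was at 0.0018 with the percentile of probes above background. On the arrays labelled IRF8KO, with Nfil3 higher by 1.24, 2 of 8 were higher and 0 lower (median 0.07). Of all genes tested there, 15.2% were higher and 9.98% lower. In CD8+ cDC minus pre-cDC, with Nfil3 higher by 0.65, 3 of 6 tested rose and 2 fell (median 0.43). Per1 was among the lower ones there (-0.18), but gave 0.075 with array medians. The comparisons with WT GMP share those arrays.

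For Bcl6, corepressors and repressed genes changed in both directions. In CDP 8 of 11 were higher and 2 lower (median 0.54, and between 0.03 and 0.55 under 5 other scalings), with Id2 higher by 2.35 and Cdkn1a, a cell cycle inhibitor, by 2.01. In neutrophils 5 rose and 6 fell, among them Cdkn1a, at least 7.17-fold lower. Of the BTB zinc finger relatives of ZBTB46 and BCL6, Zbtb32 was at least 3.31-fold higher in CDP, rose by 3.25 to pre-cDC and fell by 4.58 to CD8+ cDC. For Bcl11a, 8 of 11 NuRD genes were higher in CDP and 2 lower (median 0.70), against 51.9% and 26.1% of all genes, but 5 were higher and 5 lower after quantile normalization (median -0.044). In neutrophils 8 were lower and 2 higher (median -1.11). Among them Rbbp7 fell by 3.66 and Hdac2 was at least 4.64-fold lower. In GMP labelled IRF8KO, 2 of 11 NuRD genes were lower and none higher, against 9.98% and 15.2% of all genes tested. With array medians 0 were lower.

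Among other dendritic cell transcription factors, Irf8 itself was called higher in CDP by 4.14 and, in CD4+ minus CD8+ cDC, fell by 5.21, the largest change of that list there, next to Mycl (-4.31) and Irf4 (4.12). Of the 24 genes, 17 of 23 tested rose in CDP and 5 fell (median 1.05). In CD8+ cDC minus pre-cDC, 9 rose and 12 fell (median -0.47), with Id2 higher by 4.86 and Zeb2 lower (-4.43), beside rises of 6 of the 8 members. The arrays labelled IRF8KO had 8 of 20 tested higher and 3 lower, against 15.2% and 9.98% of all genes tested.

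Across the 12 arrays of the larger design, the levels of Batf3 and Zbtb46 followed each other most closely among the 8 genes (Pearson r = 0.956, and 0.975 over the 10 arrays without neutrophils). Relb followed Zbtb46 (0.887, or 0.917 without neutrophils), Batf3 (0.877, or 0.976) and Bcl6 (0.803, or 0.948). Without neutrophils, Batf3 and Relb were thus at least as close as Batf3 and Zbtb46. Bcl6 and Batf3 were at 0.490, or 0.962 without neutrophils. The r of -0.713 between Nfil3 and Bcl11a rests on the neutrophil arrays, without which it was 0.111. Batf and Nfil3 had r = 0.707, or 0.848 without neutrophils. These are descriptions over 6 groups of 2 arrays that share slides and scaling, so that the points are not independent. Out of 13552 genes compared, those most like Batf3 included Slc46a3 (0.994) and Tbc1d9 (0.993), and those most like Zbtb46 were Fcrla (0.987), Gpr35 (0.981) and Cyp2s1 (0.981). Slc46a3 had a mean of -1.09 in WT GMP, rising over 1.50 (CDP) and 3.65 (pre-cDC) to 6.53 in CD8+ cDC, and -0.30 in neutrophils. The nearest to Bcl6 were Camta2 (0.995), Apobr (0.995) and Cd300c2 (0.994), to Nfil3 Bnip3 (0.991), Shld1 (0.988) and Rnf185 (0.984), and to Relb Rab43 (0.992), Cfhr2 (0.987) and Nek6 (0.987). Bcl11a was followed by Cd48 (0.997), Mta3 (0.994), which is also a NuRD gene of the list above, and Pde7a (0.993). Batf2 had Kazn (0.981), Cenpv (0.972) and Kcnk13 (0.969) nearest, and Batf had Adam10 (0.979), Gtf2b (0.975) and Zfp131 (0.969). With this many genes compared over so few groups, high values are found for every pattern.

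**Figure D4:**
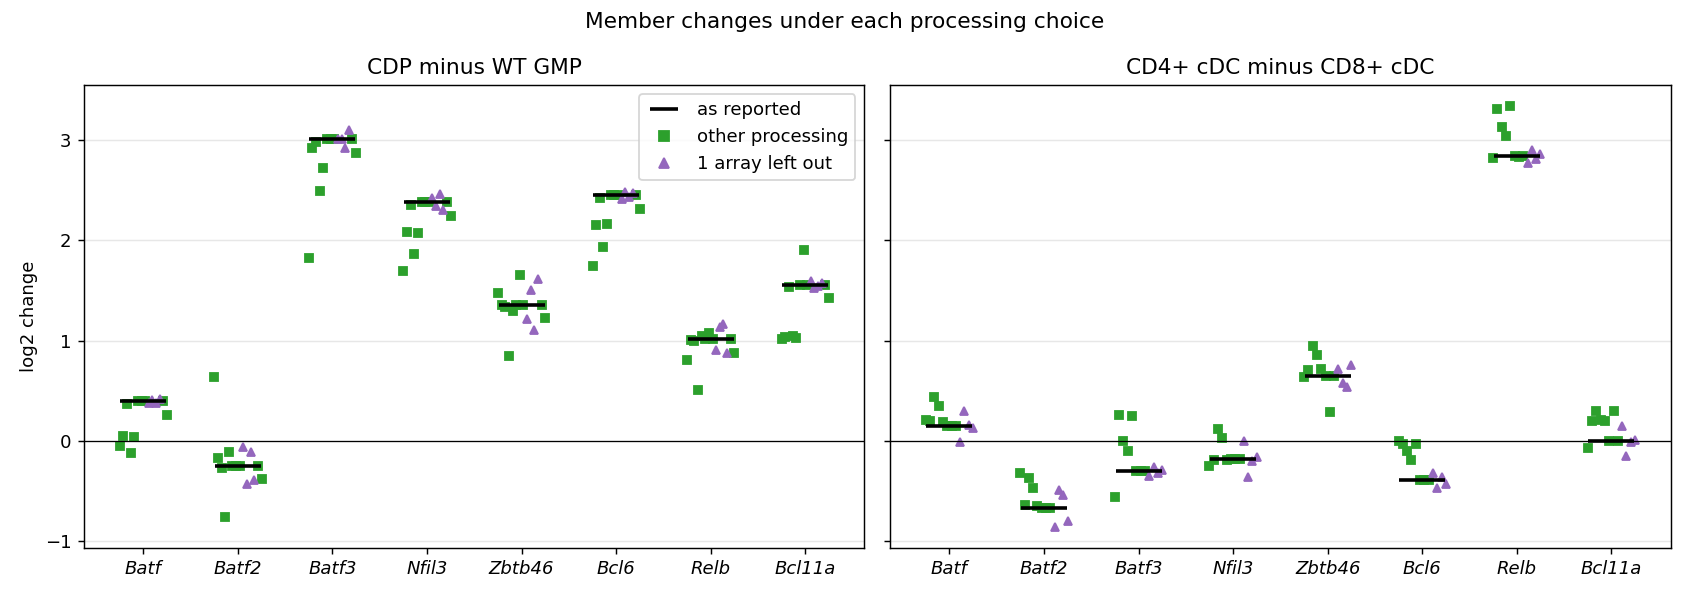
Log2 change of each gene in 2 comparisons as reported (black line), under other processing (squares) and with 1 array left out (triangles). In CDP minus WT GMP the squares of Batf and Batf2 lie on both sides of 0, and in CD4+ minus CD8+ cDC those of Batf3, Nfil3 and Bcl11a do, whereas Relb keeps its direction in both.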

How the data were processed

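RNA of the 14 samples was measured on single-colour Agilent arrays. The deposited scanner values are spot intensities from Agilent Feature Extraction 10.7.3.1, per the file headers, background-subtracted within each array and not normalized between arrays. The authors' deposited table holds intensities of the same arrays. The sources used here do not say how it was processed. Its columns have a common median of 46.02 and follow the scanner signal in rank (lowest Spearman 0.999999), so scale and direction were read from this. Control and outlier spots were dropped (107 to 211 outlier spots an array, none saturated), processed signals were put on the log2 scale and then averaged for each probe, and levels were taken relative to the array's 75th percentile. Probes were named through RefSeq symbols (26762 of 55681). No column of values was left unmapped.

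Two-sided comparisons came from limma 3.58.1 (R 4.3.3, lmFit and eBayes). A joint model of the 12 larger-design arrays served all but CD4+ minus CD8+ cDC, which used all 14 and 39429 shared probes. Fits ran on genes that some group had well above background on each of its 2 arrays. Benjamini-Hochberg adjustment covered genes for which either compared group (or both) met this, and genes were called under 0.05. SE is from the fit, and a group's SD is between its 2 arrays. At-least folds set the brighter mean against a bound for the dim group, which is, per array, the lowest signal well above background or the probe's own signal if higher. The background alternative used normexp (offset 50) on spot and background medians, which took the place of spot means after seeing the data. Other alternatives were quantile normalization, array medians, other percentiles, the authors' table, no filter, the mean of probes, a replicate block, fewer arrays and each array left out. The fit was tested on simulated data. Figures used Python 3.11.15, pandas 2.3.3 and matplotlib 3.10.9.

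Named were all members and probes, the 3 genes most correlated with each member, up to 3 called genes of largest change per list and every gene of lists of at most 8. Of the genes so named, 1 is not reported here. Members and lists were chosen with earlier results of these data known. Precision is limited by 2 arrays a group. Monocytes, named in the series title, were not analysed here.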

Additional observations from a re-analysis of the deposited data

How the results depend on the processing

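Of 56 member changes 43 were called, and 34 of these kept their direction and call under all 12 to 14 alternatives run for their comparison. The signs that turned were the following. With normexp they were Batf (-0.054) and Batf2 (0.63) in CDP minus WT GMP, Bcl11a (0.19) in pre-cDC minus CDP, Batf (0.15) in CD8+ cDC minus pre-cDC, and Batf (-0.13) and Batf2 (0.046) in Neu minus WT GMP. With quantile normalization they were Bcl11a (0.54) in pre-cDC minus CDP and Batf3 (0.25) and Bcl11a (0.20) in CD4+ minus CD8+ cDC. With array medians they were Bcl6 (-0.13) in pre-cDC minus CDP, Batf in CD8+ cDC minus pre-cDC (0.25) and in Neu minus WT GMP (-0.34), and Nfil3 (0.12) and Bcl11a (0.29) in CD4+ minus CD8+ cDC. With the percentile of probes above background on all arrays they were Batf in CDP (-0.12) and Neu (-0.17) minus WT GMP, Bcl11a (0.52) in pre-cDC minus CDP, and Nfil3 (0.025) and Bcl11a (0.20) in CD4+ minus CD8+ cDC. In the authors' table they were Bcl11a (0.57) in pre-cDC minus CDP, Batf (0.32) in CD8+ cDC minus pre-cDC, and Batf3 (0.25) and Bcl11a (0.20) in CD4+ minus CD8+ cDC. Bcl11a also turned with only shared probes (0.19, pre-cDC minus CDP) and with the mean of its probes (0.30, CD4+ minus CD8+ cDC). With 1 array left out in turn, these values ranged on both sides of 0. In IRF8KO minus WT GMP, Batf3 ran from -0.47 to 0.033 and Zbtb46 from -0.45 to 0.064. Batf ran from -0.072 to 0.051 in CD8+ cDC minus pre-cDC and from -0.011 to 0.30 in CD4+ minus CD8+ cDC, where Bcl11a ran from -0.15 to 0.15. The cause was not tested.

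In IRF8KO minus WT GMP, 3058 genes were called, 1485 with array medians and 1851 to 1992 with 1 array left out. In CD4+ minus CD8+ cDC, 4 members were called, and between 2 and 4 with 1 array left out, the 2 being without CD8+ cDC replicate 1. The all-gene median moved most, by 0.62, in pre-cDC minus CDP with no filter on dim probes. The share of higher among genes called went from 66.5% to 51.8% (quantile), 52.4% (authors' table) and 40.4% (percentile of probes above background) in CDP minus WT GMP. In pre-cDC minus CDP it went from 28.4% to 16.5% (array medians), 39.6% (authors' table) and 51.1% (that percentile), in CD8+ cDC minus pre-cDC from 53.9% to 66.8% (array medians), and in CD4+ minus CD8+ cDC from 48.5% to 63.6% (array medians) and 59.2% (that percentile).

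No pairing of the samples by replicate number was detected, since 0 of 21 pairs of groups correlated over 0.1 (from -0.22 to 0.08). This does not exclude pairing, which the labels leave unsaid. With the replicate number as a block, genes called in IRF8KO minus WT GMP numbered 2683, and 3, 7, 7, 7, 7, 8 and 4 members were called in the 7 comparisons, as without it.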
